A study of Mus musculus with 16 samples.

Results

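The galectin family was described across 16 tumour RNA libraries through 7 genes of the 54532 in the expression table: the galectins Lgals1, Lgals3, Lgals4, Lgals7, Lgals8 and Lgals9, and Lgals3bp, which encodes a secreted glycoprotein that galectins bind. The members were taken by symbol from the whole table. The family was selected from values of these same libraries, with the difference of Lgals7 between genotypes under cisplatin already known, so the group differences of the members are given as a description and support nothing on their own.

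Galectins are small lectins that bind galactose-containing sugars on cell-surface and secreted glycoproteins. They are made without a signal peptide, act both outside the cell and in the cytoplasm, and in tumours are known for effects on T cell survival, adhesion, macrophage function and the sensing of damaged vesicles. Galectins fall into prototype members with a single sugar-binding domain (Lgals1, Lgals7), a chimera member with a long flexible tail (Lgals3), and tandem-repeat members with a pair of such domains (Lgals4, Lgals8, Lgals9).

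The tumours were end-stage subcutaneous B16F10 growths, from a mouse melanoma line, in C57BL/6J hosts of both sexes aged 8 weeks. The cells were wild-type (WT) or BdP, which the sample titles give as deficient in Pros1 and another label as a Pros1 knockdown. How Pros1 was lowered, and whether BdP is 1 clone, is not stated in the labels. Treatment was PBS or cisplatin (a DNA-crosslinking platinum compound, 5 mg/kg) given intraperitoneally, once a day for 3 days in 2 rounds from day 8 after implantation. This gave 4 groups of 4 libraries: WT with PBS, WT with cisplatin, BdP with PBS and BdP with cisplatin. The labels describe no removal of host cells, so a library can hold both tumour and host RNA. The replicate labels do not describe the animals further, and p-values measure the spread between these samples, which may be technical.

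Reads assigned to genes ran from 10051843 to 27055771 per library. Mitochondrial transcripts took 76.9% of the reads in WT PBS 1, which left 2322202 other reads, and 12.2% and 21.7% in WT cisplatin 3 and 4, against 2.03% to 5.06% in the other 13 libraries. Pros1, the gene of protein S, measured 4.79 to 11.5 FPKM (fragments per kilobase of gene, adjusted for library depth) in WT libraries and 1.24 to 2.52 FPKM in BdP libraries. All 9 melanoma genes on the marker list passed the filter on low values.

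Promoters are shown for the 4 members the results below turn on: Lgals7, which differed between genotypes, and Lgals3, Lgals3bp and Lgals9, whose levels varied with interferon-response genes. Each runs from 250 bases before to 50 after the RefSeq start (GRCm38.p6), 5′ to 3′ on the gene's strand. Capitals mark matches to the motifs searched. These lie at chr7:28864136-28864435 (plus strand), chr14:47373610-47373909 (plus strand), chr11:118401910-118402209 (minus strand) and chr11:78984875-78985174 (minus strand).
Lgals7: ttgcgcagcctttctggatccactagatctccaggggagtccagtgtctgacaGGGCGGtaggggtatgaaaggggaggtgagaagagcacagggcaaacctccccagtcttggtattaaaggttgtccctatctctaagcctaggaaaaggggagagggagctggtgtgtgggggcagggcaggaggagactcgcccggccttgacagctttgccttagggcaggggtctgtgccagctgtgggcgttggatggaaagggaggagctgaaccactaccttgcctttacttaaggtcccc
Lgals3: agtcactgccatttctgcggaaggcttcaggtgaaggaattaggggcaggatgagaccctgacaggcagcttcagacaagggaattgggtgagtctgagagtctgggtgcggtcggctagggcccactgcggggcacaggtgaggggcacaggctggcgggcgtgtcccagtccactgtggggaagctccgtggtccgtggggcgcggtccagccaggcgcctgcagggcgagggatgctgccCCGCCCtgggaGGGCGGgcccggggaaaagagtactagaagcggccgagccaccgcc
Lgals3bp: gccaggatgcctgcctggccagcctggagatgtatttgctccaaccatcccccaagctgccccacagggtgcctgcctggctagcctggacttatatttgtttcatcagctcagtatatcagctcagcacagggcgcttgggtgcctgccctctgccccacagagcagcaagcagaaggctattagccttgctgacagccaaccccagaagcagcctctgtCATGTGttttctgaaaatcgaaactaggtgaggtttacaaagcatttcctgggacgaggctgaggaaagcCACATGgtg
Lgals9: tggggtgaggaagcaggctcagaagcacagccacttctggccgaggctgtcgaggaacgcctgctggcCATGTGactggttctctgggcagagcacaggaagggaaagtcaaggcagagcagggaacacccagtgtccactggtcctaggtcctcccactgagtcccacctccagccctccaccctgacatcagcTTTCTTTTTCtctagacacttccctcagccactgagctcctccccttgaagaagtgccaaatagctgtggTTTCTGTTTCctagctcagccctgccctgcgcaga
Of the 7 members, 6 had a promoter entry. The motifs searched on both strands were the TATA box TATAAA, the interferon response element (GAAA, any 2 bases, GAAA), the AP-1 site TGANTCA, the E-box CATGTG, the GC box GGGCGG and the p53 full site. Lgals9 held 2 matches to the interferon response element, at -55 to -46 and 15 to 24 from the start, a motif present in 3.44% of 32851 promoters of the same length, and Lgals3, Lgals3bp and Lgals7 held 0. Lgals3bp held 2 matches to CATGTG and Lgals9 held 1, against 14.2% of promoters with any. Lgals7 held 1 GC box and Lgals3 held 2, a motif found in 35.7% of promoters. A match describes letters in this window and is not a measured site.

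Levels per gene length placed Lgals1 first in every library, followed by Lgals3, Lgals3bp and Lgals9, each above the next in 16 of 16 libraries. By mean FPKM Lgals1 ranked 54, Lgals3 146, Lgals3bp 483 and Lgals9 1322 among the 54532 genes. Lgals8 ranked 3345, Lgals7 4587 and Lgals4 12840. The ranges of Lgals1 and Lgals3, of Lgals3 and Lgals3bp, and of Lgals3bp and Lgals9 overlapped over all libraries, while the lowest Lgals9 value, 25.0 FPKM, lay above the highest Lgals8 value, 16.3 FPKM. Lgals8 was above Lgals7 in 11 of 16 libraries, namely in all 8 BdP libraries, in 3 of 4 WT PBS libraries and in 0 of 4 WT cisplatin libraries.

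**Figure D1:**
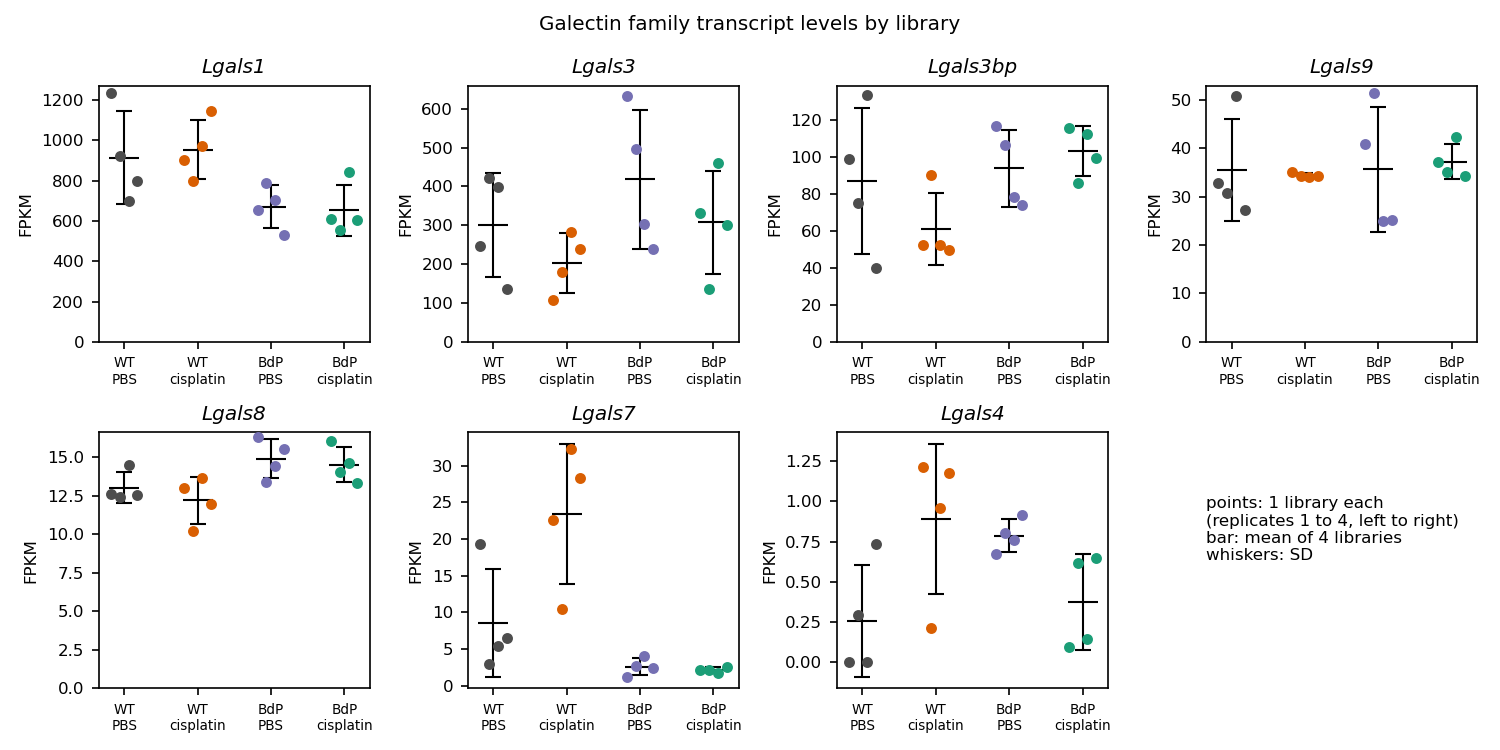
Level of each member in FPKM (y axis, linear, own scale per panel) by group (x axis). Points are single libraries, bars are group means and whiskers are SD (n = 4). Lgals7 is at 10.5 to 32.3 FPKM in WT cisplatin libraries and at 1.25 to 4.06 FPKM in the BdP libraries.

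Lgals7, a prototype galectin best known from stratified epithelium and as a p53-induced gene, was the member that differed most between groups. It measured 22.6, 10.5, 32.3 and 28.3 FPKM in WT tumours under cisplatin and 2.13, 2.11, 1.78 and 2.61 FPKM in BdP tumours under cisplatin. The groups did not overlap, with means of 23.4 ± 9.51 and 2.16 ± 0.341 FPKM (SD, n = 4), a ratio of 10.9. Under PBS it measured 19.3, 2.96, 5.44 and 6.49 FPKM in WT tumours, with a mean of 8.56 ± 7.33 FPKM (SD, n = 4). It measured 1.25, 2.68, 4.06 and 2.44 FPKM in BdP tumours (2.61 ± 1.15, SD, n = 4). These groups overlapped. The WT PBS value of 19.3 FPKM came from WT PBS 1, the library richest in mitochondrial reads, and rested on 35 reads (95% Poisson interval 13.5 to 26.9 FPKM, for counting error only).

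On the log2(FPKM + 1) scale Lgals7 was lower in BdP than in WT tumours by a log2 fold change of -2.85 ± 0.42 (SE) under cisplatin (limma, Benjamini-Hochberg adjusted p = 0.00306 over 12319 genes). It was 1 of 6 members tested to be called, where 1.07% of all genes were called; the contrast chose the family and nothing is read from this count. The call held when each of 16 libraries was left out in turn, with limma adjusted p of at most 0.0175, and in TPM. These fits reuse the libraries that selected the family, so they describe the call and add no support. Under PBS the log2 fold change was -1.19 ± 0.42 (limma adjusted p = 0.163), with 0 of 6 members called against 0.990% of all genes. Cisplatin against PBS gave 1.52 ± 0.42 in WT tumours (limma adjusted p = 0.546), where 0 members and 0.00812% of all genes were called. In BdP tumours it gave -0.14 ± 0.42 (limma adjusted p = 1), with 0 members and 0% of genes called. The interaction term (how far the drug response of BdP tumours exceeded that of WT tumours) was -1.66 ± 0.60 (limma adjusted p = 0.835), again with 0 members and 0% of genes called, so a difference between the genotypes in the response of Lgals7 did not pass the test. At an unadjusted limma p under 0.05 there were 953 genes (7.74%) for cisplatin in WT, 542 (4.4%) in BdP and 691 (5.61%) for the interaction. For BdP against WT there were 2377 (19.3%) under PBS and 1704 (13.8%) under cisplatin. The contrasts share groups of libraries and are not independent of each other.

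**Figure D2:**
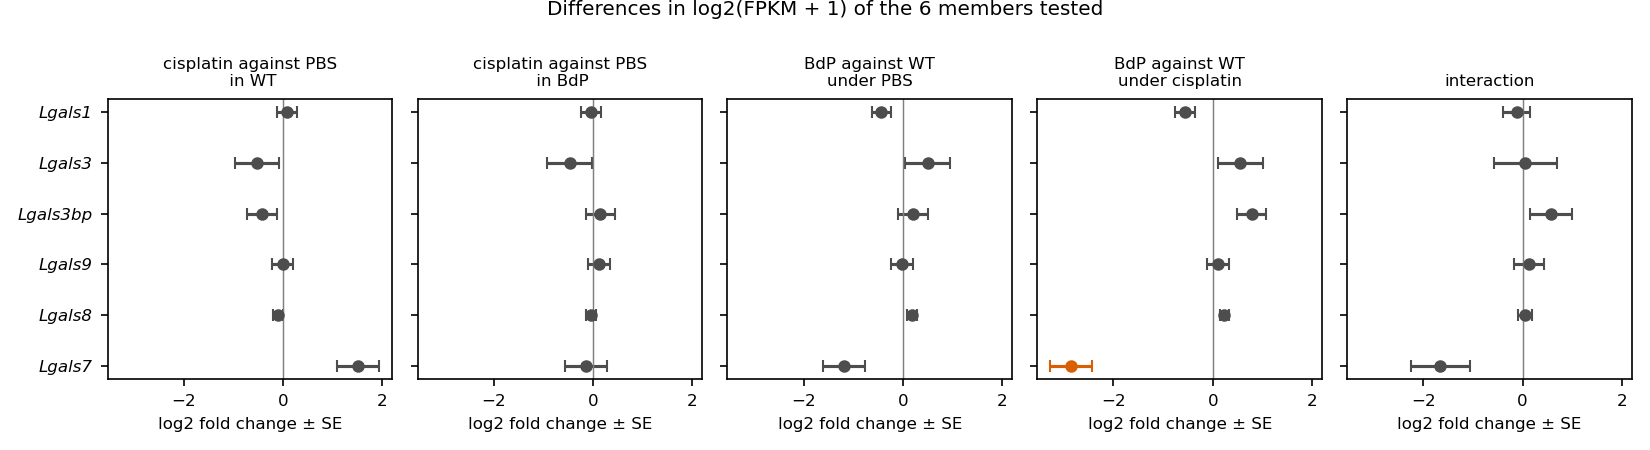
Log2 fold change of log2(FPKM + 1) (x axis, points with whiskers of 1 SE) of the 6 members tested (y axis) in 5 contrasts. The orange point is the only member called, Lgals7 at -2.85 in BdP against WT under cisplatin.

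Keratinocyte markers other than Sfn measured 0 to 0.251 FPKM in the WT cisplatin libraries, and Sfn measured 0.692 to 3.05 FPKM. In the 4 WT cisplatin libraries Krt5 and Krt14, keratins of basal epidermis, had 0 reads, and 5 of 10 keratinocyte markers had 0 reads throughout these libraries. Krt5 and Krt14 also had 0 reads in all 8 BdP libraries, where 5 of 10 markers had 0 reads throughout. A part of keratinocytes in the Lgals7 levels was not tested. The summed level of the 10 markers was 0.916 to 3.19 FPKM in WT cisplatin libraries and 1.77 to 4.76 FPKM in BdP cisplatin libraries, and 1 of 10, Sfn, passed the filter. In WT PBS libraries the sum was 0.867 to 3.47 FPKM. The highest of these was WT PBS 1, which also had the highest Lgals7 of its group (19.3 FPKM) and the highest Krt14 of all 16 libraries, at 1.75 FPKM from 6 reads, with 1 read of Krt5 and 2 of Trp63. The part of these transcripts in its Lgals7 value was not tested. In BdP PBS libraries it was 1.73 to 7.04 FPKM.

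Lgals7 lies on chromosome 7 from 28863853 to 28866284 on the plus strand (GRCm38, ENSMUSG00000053522), 22145 bases past the end of Lgals4 with 0 genes wholly between. It overlaps Gm10648, an antisense gene on the opposite strand (28859587 to 28876331) that reaches into this stretch. Gm10648 had 33 reads over the 4 WT cisplatin libraries and 0 over the BdP cisplatin libraries. Whether the authors' counting used strand is not given in the sources used here, so reads from Lgals7 and Gm10648 cannot be told apart where they overlap. Of 24 other genes tested with any part within 500 kb, 0 were called in any contrast. Their log2 fold changes for BdP against WT under cisplatin ran from -0.30 to 1.13 with a median of -0.01.

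**Figure D3:**
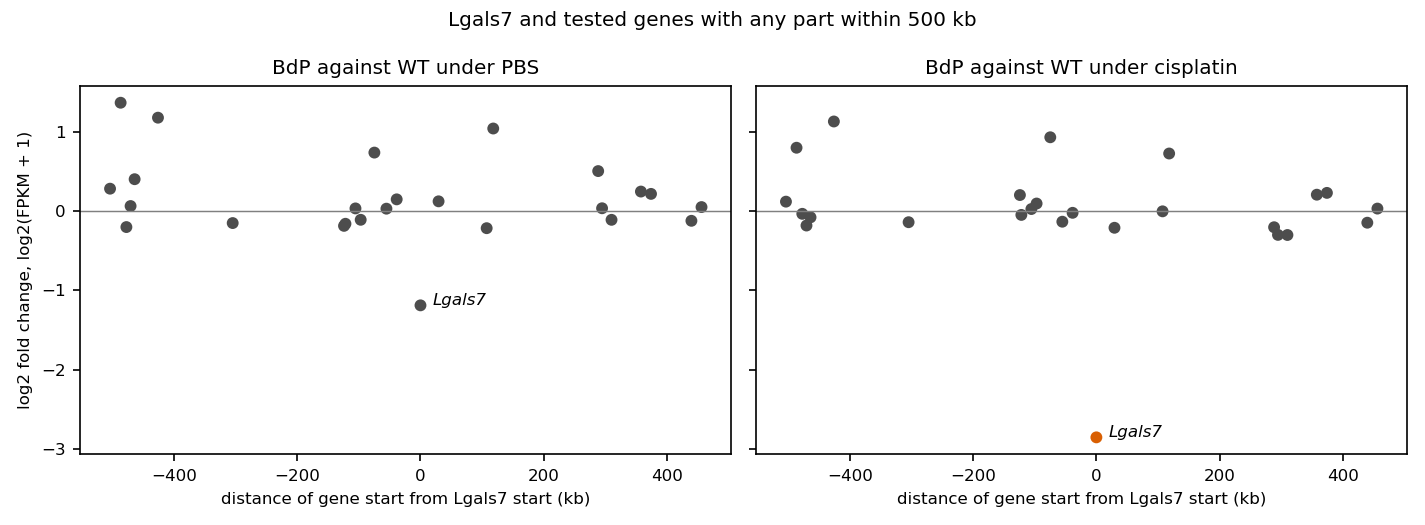
Log2 fold change for BdP against WT under PBS and under cisplatin (y axis) of Lgals7 and 24 tested genes with any part within 500 kb, by distance of their starts from that of Lgals7 in kb (x axis). Under cisplatin Lgals7 lies at -2.85 and the other 24 between -0.30 and 1.13.

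The genes whose levels followed Lgals7 most closely over the 16 libraries, among 6476 protein-coding genes, were Myl9, a myosin light chain (Pearson r = 0.93), Cct2 (0.91), Gabarapl1 (0.90), Sparc, a matrix glycoprotein (0.88), and Cdk4 (0.87). With group means removed the values were 0.81, 0.70, 0.74, 0.38 and 0.66. The libraries share their groups, and these values describe likeness only. The mean of 15 p53 target genes and Lgals7 gave Pearson r = 0.17 and Spearman rho = 0.06. Pearson r was 0.52 without the 2 farthest libraries and -0.53 with group means removed. For cisplatin against PBS the 15 genes had a median log2 fold change of 0.22 in WT and 0.23 in BdP tumours. Limma called 0, with 2 of 15 and 5 of 15 at an unadjusted p under 0.05, beside 7.74% and 4.4% of all genes. A part of p53 in the Lgals7 levels was not tested.

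Lgals4, a tandem-repeat galectin of gut epithelium, was the lowest member and did not pass the filter of 1 FPKM in at least 4 libraries. It measured 0, 0.29, 0 and 0.74 FPKM in WT PBS libraries, 1.21, 0.212, 0.959 and 1.18 in WT cisplatin libraries, 0.672, 0.802, 0.761 and 0.915 in BdP PBS libraries, and 0.0947, 0.619, 0.143 and 0.651 in BdP cisplatin libraries. These values rest on 0 to 78 reads, above the floor of 3 reads in 14 of 16 libraries. A count of 0 allows up to 0.663 FPKM in WT PBS 1 and 0.0507 FPKM in WT PBS 3, from 3 reads. The BdP groups did not overlap, with PBS above cisplatin, and no test was made because the gene failed the filter.

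Lgals1, a prototype galectin that is abundant in mesenchymal and tumour cells, was the highest member. It measured 1234, 923, 699 and 800.0 FPKM in WT PBS libraries, 902, 799, 971 and 1144 in WT cisplatin libraries, 656, 787, 705 and 531 in BdP PBS libraries, and 609, 557, 840 and 606 in BdP cisplatin libraries. Means were 914 ± 232, 954 ± 145, 669.8 ± 107 and 653 ± 127 FPKM (SD, n = 4), so WT means were above BdP means, with overlap of the libraries under both treatments. The highest values, 1234, 1144 and 971 FPKM, came from WT PBS 1, WT cisplatin 4 and WT cisplatin 3. These are the 3 libraries richest in mitochondrial reads. All are WT, so genotype and mitochondrial share are partly mixed in these means. The log2 fold change of BdP against WT was -0.43 ± 0.20 under PBS (limma adjusted p = 0.255) and -0.55 ± 0.20 under cisplatin (limma adjusted p = 0.240). Neither passed the test, and in TPM the value under PBS was 0.58, which is -0.19 relative to the median of all genes there (0.76). The value under cisplatin ran from -0.68 to -0.40 over 28 alternatives, which included leaving out the 3 libraries richest in mitochondrial reads. Cisplatin against PBS gave 0.08 ± 0.20 in WT and -0.04 ± 0.20 in BdP tumours. Over the 16 libraries Lgals1 and Lgals7 gave Pearson r = 0.76 and Spearman rho = 0.71, given as a description with no test because the group difference of Lgals7 that selected the family enters it. Pearson r was 0.73 without the 2 libraries farthest from the median and 0.50 with group means removed. WT PBS 1, WT cisplatin 3 and WT cisplatin 4, with Lgals7 at 19.3, 32.3 and 28.3 FPKM, enter these values. The genes most like Lgals1 were Pdcd5 (r = 0.95), Atp6v1f, Elob, Naca and Ube2k.

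Lgals3, the chimera galectin that macrophages make in quantity, measured 247, 421, 399.9 and 137 FPKM in WT PBS libraries and 107, 181, 284 and 239.9 FPKM in WT cisplatin libraries. In BdP tumours it measured 632, 496, 304 and 240.1 FPKM under PBS and 333, 135, 459.6 and 302 FPKM under cisplatin. All groups overlapped, and libraries within a group differed by 2.63-fold to 3.40-fold. The log2 fold change of BdP against WT was 0.50 ± 0.45 under PBS (limma adjusted p = 0.534) and 0.56 ± 0.45 under cisplatin (limma adjusted p = 0.615). Cisplatin against PBS gave -0.52 ± 0.45 in WT and -0.47 ± 0.45 in BdP tumours.

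The spread of Lgals3 followed that of macrophage markers. Over 16 libraries its level and the mean of 11 macrophage genes gave Pearson r = 0.96 (permutation p = 1e-05, the smallest these resamples can give, Benjamini-Hochberg adjusted p = 0.00036 over 72 pairs of member and list) and Spearman rho = 0.94 (permutation p = 1e-05, adjusted p = 0.00072). Pearson r was 0.95 without the 2 farthest libraries, 0.96 with group means removed and 0.96 without WT PBS 1. The summed macrophage level ran from 92.0 to 1372 FPKM in WT PBS, 129.6 to 587 in WT cisplatin, 473 to 1525 in BdP PBS and 170.3 to 1160 in BdP cisplatin libraries. Its closest genes were the macrophage and lysosomal genes Cd68 (r = 0.96), Ctsb (0.96), C1qb (0.96), Lgmn (0.95) and Psap (0.95), of which Cd68 and C1qb are on the macrophage list. Lgals3 also varied with interferon-response genes (Pearson r = 0.85, permutation p = 6e-05, adjusted p = 0.00144, and Spearman rho = 0.84, permutation p = 0.00014, adjusted p = 0.00336), with r of 0.85 without the 2 farthest libraries and 0.84 with group means removed. WT PBS 4, which had the lowest mean of the 11 macrophage genes (2.37 in log2(FPKM + 1)), had Lgals3 at 137 FPKM. In bulk tissue the number of macrophages, the RNA per macrophage and Lgals3 RNA from other cells, tumour cells included, cannot be told apart.

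Lgals3bp measured 98.9, 75.1, 134 and 39.7 FPKM in WT PBS libraries, 52.4, 90.3, 52.2 and 49.6 in WT cisplatin libraries, 116, 107, 78.3 and 74.0 in BdP PBS libraries and 115, 86.0, 112 and 99.3 in BdP cisplatin libraries. Under cisplatin the BdP mean was 103 ± 13.5 and the WT mean 61.1 ± 19.5 FPKM (SD, n = 4), with overlap through WT cisplatin 2. The log2 fold change of BdP against WT was 0.78 ± 0.30 under cisplatin (limma adjusted p = 0.270) and 0.21 ± 0.30 under PBS (limma adjusted p = 0.699). Its level varied with 20 interferon-response genes (Pearson r = 0.87, permutation p = 1e-05, adjusted p = 0.00036; Spearman rho = 0.87, permutation p = 2e-05, adjusted p = 0.00072). Pearson r was 0.79 without the 2 farthest libraries and 0.83 with group means removed. The closest genes were the interferon-inducible GTPase genes Irgm1 (r = 0.93), Ifi47 (0.93) and Tgtp2 (0.93), with Acsl5 (0.93) and Erap1 (0.92).

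Interferon-response genes themselves did not pass the test in any contrast (0 of 20 called by limma, with 1 of 20 at an unadjusted p under 0.05 for cisplatin in WT and 4 of 20 for BdP against WT under cisplatin, beside 7.74% and 13.8% of all genes). Under cisplatin all 20 were nominally above 0 in BdP against WT, beside 6292 of 12319 genes. Their median log2 fold change was 0.91, beside 0.01 over all genes. For cisplatin in WT tumours 19 of 20 were below 0, beside 6279 of 12319 genes, with medians of -0.61 and -0.0060. The 20 genes were measured in the same libraries, so their signs are not independent. The 11 macrophage genes had 0 called by limma and 0 at an unadjusted p under 0.05, with medians of 0.60 under PBS and 0.73 under cisplatin for BdP against WT.

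Lgals9, a tandem-repeat galectin induced by interferon and a ligand of TIM-3, measured 32.8, 30.7, 50.8 and 27.3 FPKM in WT PBS libraries and 35.0, 34.3, 33.9 and 34.2 FPKM in WT cisplatin libraries. In BdP tumours it measured 40.9, 51.4, 25.0 and 25.2 FPKM under PBS and 37.1, 35.1, 42.3 and 34.3 FPKM under cisplatin. The groups overlapped, and the spread was smaller under cisplatin in WT tumours (SD 0.465) than under PBS (SD 10.5), a difference that was not tested. No log2 fold change exceeded 0.13 in size in any contrast, each with an SE of 0.21 or, for the interaction, 0.30. Its level varied with NK cell genes (Pearson r = 0.77, permutation p = 0.00034, adjusted p = 0.00612; Spearman rho = 0.74, permutation p = 0.00157, adjusted p = 0.0204) and gave 0.72 without the 2 farthest libraries. With interferon-response genes r was 0.70 (permutation p = 0.00257, adjusted p = 0.0185), rho was 0.64 (permutation p = 0.00941, adjusted p = 0.0484), and r was 0.58 without the 2 farthest libraries. The 5 closest genes were Gm2a (r = 0.91), Gnai2, Lypla2, Glud1 and Cdc42.

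Of 12 marker lists, 6 passed for Lgals3 by Pearson r, 4 for Lgals3bp, 5 for Lgals9 and 0 for Lgals1, Lgals7 and Lgals8 (permutation p adjusted over 72 pairs). NK cell, dendritic cell and interferon-response genes passed for Lgals3, Lgals3bp and Lgals9 alike, so these lists do not set 1 of them apart. NK cell genes gave r of 0.73 for Lgals3 and 0.75 for Lgals3bp. Macrophage genes passed for Lgals3 and Lgals3bp (0.66), fibroblast genes for Lgals3 and Lgals9 (0.71 each), and T cell genes for Lgals9 (0.64). With p53 targets Lgals3 passed at a negative r (-0.64). By Spearman rho this pair did not pass (adjusted permutation p = 0.087), nor did T cell (0.064) and fibroblast genes (0.065) for Lgals9. NK cell genes passed by rho for Lgals7 (-0.70, adjusted permutation p = 0.034) and Lgals8 (0.66, adjusted permutation p = 0.046). With group means removed Pearson r was -0.29 and 0.25 there. The group difference that selected the family enters the Lgals7 value.

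**Figure D4:**
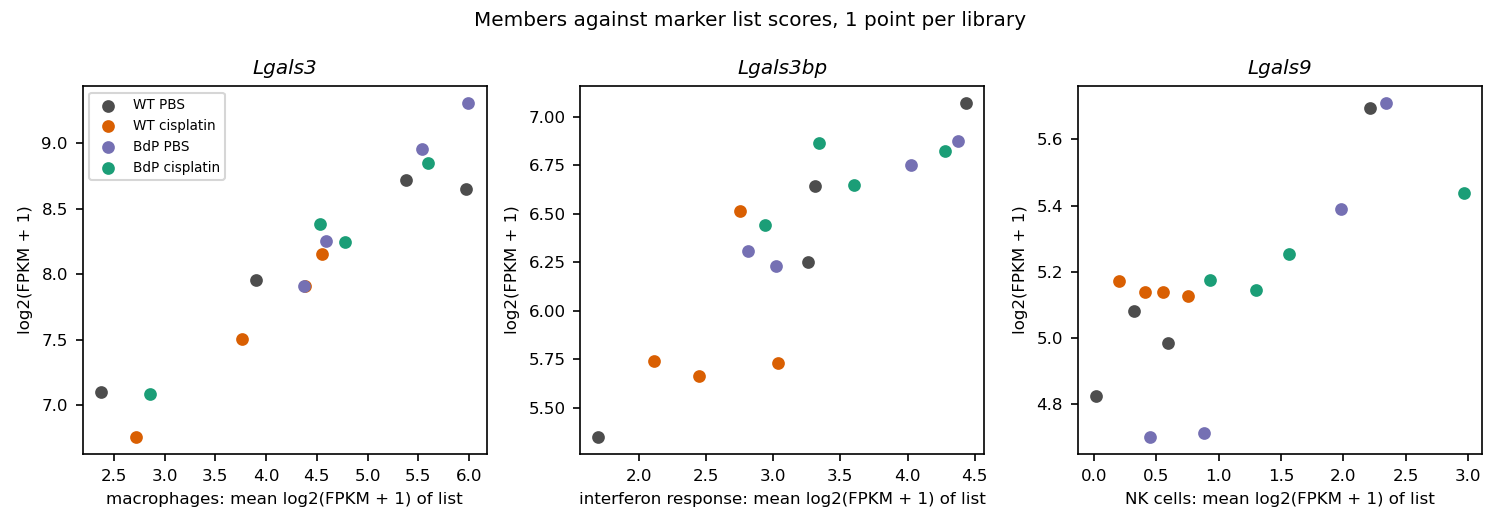
Level of Lgals3, Lgals3bp and Lgals9 (y axis, log2(FPKM + 1)) against the mean log2(FPKM + 1) of macrophage, interferon-response and NK cell genes (x axis), with 1 point per library coloured by group. Lgals3 rises with macrophage genes (r = 0.96) in libraries of all 4 groups.

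Lgals8, a tandem-repeat galectin that marks damaged vesicles for autophagy, varied least. Its 16 values ran from 10.2 to 16.3 FPKM, with group means of 13.0 ± 0.992, 12.2 ± 1.52, 14.9 ± 1.26 and 14.5 ± 1.14 FPKM (SD, n = 4) for WT PBS, WT cisplatin, BdP PBS and BdP cisplatin. The groups overlapped. The log2 fold change of BdP against WT was 0.18 ± 0.10 under PBS (limma adjusted p = 0.323) and 0.24 ± 0.10 under cisplatin (limma adjusted p = 0.316). Lgals8 overlaps Heatr1 on the opposite strand. The genes most like it, led by Wdr33 (r = 0.75), followed it less closely than those of the other members tested. Of 10 damaged-vesicle and autophagy genes tested, limma called 0 in any contrast, with 3 of 10 at an unadjusted p under 0.05 for BdP against WT under either treatment, beside 19.3% of all genes under PBS and 13.8% under cisplatin.

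Other galectin genes were low or absent from the calls. Lgalsl measured 8.35 to 17.2 FPKM and was not called, Lgals2 reached 0.712 FPKM, Grifin reached 1.03 FPKM and Lgals12 was listed at 0 in all 16 libraries.

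Enzymes that build or mask galectin-binding sugars included 2 called genes among 14 tested. For BdP against WT limma called 1 lower under PBS, beside 0.990% of all genes. Under cisplatin it called 1 higher and 1 lower, beside 1.07% of all genes. At an unadjusted limma p under 0.05 there were 3 of 14 under PBS and 6 of 14 under cisplatin. The shares of all genes were 19.3% and 13.8%. Mgat4b, which adds a branch to N-glycans, measured 124 to 159 FPKM in WT libraries and 93.6 to 111 FPKM in BdP libraries, without overlap. Its log2 fold change for BdP against WT was -0.44 ± 0.10 under PBS (limma adjusted p = 0.0462) and -0.44 ± 0.10 under cisplatin (limma adjusted p = 0.0440). These calls were near the threshold. The PBS call was kept without WT PBS 3 or WT cisplatin 2 and lost when any of the other 14 libraries was left out; the cisplatin call was kept without WT PBS 1, 3 or 4 and lost without any of the other 13. Both were lost in TPM, where the PBS value was 0.56 (-0.21 relative to the median of all genes), and without the 3 libraries richest in mitochondrial reads.

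St6gal1, a sialyltransferase whose product caps galactose and blocks binding by several galectins, measured 21.3, 25.3, 21.7 and 19.0 FPKM in WT cisplatin libraries and 38.1, 40.7, 34.2 and 40.0 FPKM in BdP cisplatin libraries. The groups did not overlap, and the log2 fold change was 0.79 ± 0.16 (limma adjusted p = 0.0265). The call was lost without WT cisplatin 1, 3 or 4 or BdP cisplatin 1, 2 or 4, with log2 fold changes of 0.72 to 0.86 over the 16 libraries left out in turn. It was also lost in TPM and without the 3 libraries richest in mitochondrial reads (limma adjusted p = 0.152). Under PBS it was 0.52 ± 0.16 (limma adjusted p = 0.120).

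Of 22 receptors and counter-ligands tested, limma called 1, for BdP against WT under PBS, beside 0.990% of all genes. At an unadjusted limma p under 0.05 there were 3 of 22 under PBS and 6 of 22 under cisplatin. The shares of all genes were 19.3% and 13.8%. Tfrc, the transferrin receptor, measured 69.9 to 89.5 FPKM in WT PBS libraries and 44.9 to 51.1 FPKM in BdP PBS libraries. The log2 fold change was -0.69 ± 0.11 (limma adjusted p = 0.0111). The call was kept in 26 of 28 alternatives, among them each of 16 libraries left out in turn. TPM was 1 of the alternatives that lost it, with a value of 0.29 (-0.47 relative to the median of all genes). Havcr2, which encodes TIM-3, and Ptprc, which encodes CD45, gave 0.77 ± 0.51 and 1.57 ± 0.72 for BdP against WT under cisplatin and were not called (limma adjusted p = 0.526 and 0.355).

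**Figure D5:**
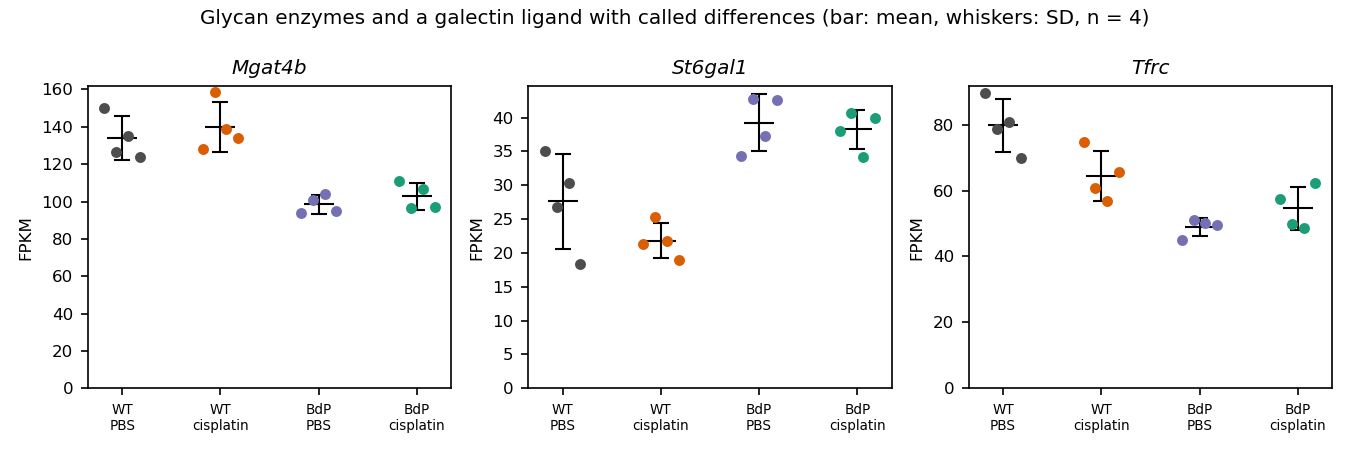
Levels in FPKM (y axis, from 0) of Mgat4b, St6gal1 and Tfrc by group (x axis). Points are libraries, bars are means and whiskers are SD (n = 4). Mgat4b is at 93.6 to 111 FPKM in BdP and at 124 to 159 FPKM in WT libraries.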

How the data were processed

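Bulk tumour RNA was sequenced as 16 libraries, 4 in each of 4 groups taken from the sample labels. The authors deposited FPKM values per gene for 54532 genes; per the submitters' processing notes reads were handled with featureCounts 1.5.0-p3, HISAT2 2.0.5 and CASAVA, on build GRCm38 (mm10). FPKM multiplied by gene length gave whole multiples of 1 read in 100% of values (tolerance 0.1 read), so reads per gene were recovered. The step sizes equalled median-of-ratios size factors, so the deposited FPKM were used without further scaling. Depth was 10051843 to 27055771 reads, and Poisson intervals (95%) and floors of 3 reads cover counting error only. Unmapped columns numbered 0.

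The 12319 genes reaching 1 FPKM in 4 or more libraries were fitted by limma 3.58.1 under R 4.3.3, on log2(FPKM + 1) of the 16 libraries together, using moderated variances with a trend, after the fitting script had been tested on simulated data. A pseudocount of 1 shrinks fold changes of low genes. Calls required an adjusted p (Benjamini-Hochberg, all genes tested) under 0.05. Marker-list scores are means of log2(FPKM + 1) over list genes passing the filter; correlations used 100000 permutations. Genes named were the 7 members, Pros1, called members of each list or, where none was called, up to 4 others. The 5 protein-coding genes with a mean of at least 5 FPKM most like each member were also named. Havcr2 and Ptprc were named outside this rule, as were the genes overlapping a member. The members and lists were chosen with earlier results of these data known. Alternatives were another pseudocount, filter or scaling (TPM), limma-voom on recovered reads, no trend, a replicate block and leaving out libraries. Host sex as a covariate, and all alternatives for Mgat4b, St6gal1 and Tfrc, were added after seeing the data.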

Additional observations from a re-analysis of the deposited data

Results flagged for a closer look

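In 2 of 28 groups of 4 libraries 1 library lay far from the others by Dixon's criterion, which chance meets in about 1 in 20 groups. Lgals3bp was at 90.3 FPKM in WT cisplatin 2, against 49.6 to 52.4 FPKM in the other 3 libraries of that group (gap over range 0.932). Lgals8 was at 14.5 FPKM in WT PBS 3, against 12.4 to 12.6 FPKM in the other 3 (gap over range 0.903).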

How the results depend on the processing

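The number of members called (0, 0, 0, 1 and 0 in the 5 contrasts) was the same under all 28 alternatives, and leaving out each library in turn gave 0 to 1. Lgals7 in BdP against WT under cisplatin ran from -3.28 to -2.39 (limma adjusted p 0.000310 to 0.0175). This contrast selected the family, so these values are a description only. No pairing by replicate number is stated in the labels. Same-numbered libraries deviated from their group means with a median correlation of 0.02 (9 of 24 pairs over 0.1, highest 0.42). Other pairs had a median of -0.0081 (25 of 72 over 0.1, highest 0.57), and 3 of 16 libraries correlated best with their own number. This check is descriptive and does not exclude a pairing. With the replicate block 1 member was still called under cisplatin, and 81 and 80 genes were called for BdP against WT under PBS and cisplatin, against 122 and 132, while Mgat4b (adjusted p = 0.0900 and 0.0846) and St6gal1 (adjusted p = 0.0537) were no longer called. Those counts were 6 and 21 in TPM, 14 and 48 in TPM without mitochondrial and haemoglobin genes, 56 and 106 with no filter, 123 and 231 with limma-voom, 50 and 44 without the 3 libraries richest in mitochondrial reads, 274 and 186 with host sex as a covariate, and 25 to 359 and 46 to 309 with 1 library left out. Host sex, an alternative added after seeing the data, was called from Y chromosome transcripts above Xist, which held in 1 of 4 WT PBS, 2 of 4 WT cisplatin, 2 of 4 BdP PBS and 2 of 4 BdP cisplatin libraries. A cutoff of 1 FPKM for summed Y chromosome transcripts, tried first, gave 55 and 73. It was met in 0 WT PBS, 0 WT cisplatin, 2 BdP PBS and 2 BdP cisplatin libraries. In the 3 WT libraries called by Y above Xist the summed Y transcripts did not exceed 1 FPKM, so that call is uncertain. The other 3 contrasts had 0 to 3 calls. TPM moved the median of all genes by 0.65 for cisplatin in WT and by 0.76 for BdP against WT under PBS, and there Mgat4b was 0.56 and Tfrc 0.29 for BdP against WT under PBS, opposite in sign to the main values but -0.21 and -0.47 relative to that median. Depth limits Lgals4, and Lgals7 in WT PBS 1 (35 reads).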
